A study of Mus musculus with 170 samples.

Results

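Single heart cells in which Dgcr8 had been deleted were ranked by the transcript level of Vegfa, and the cells with the most Vegfa were compared with those with the least. Members were chosen from the measurements in 2 steps. A conditional knockout (cKO) cell entered when its mean log2(TPM + 1) over 15 cardiomyocyte genes, among them Tnnt2, Myl7, Actc1 and Ttn, was at least 8.5. Within each of the 2 batches that the sample titles name, the cells were then ranked by Vegfa TPM, and the top 11 and bottom 11 cells of each batch were joined into a high and a low group. Of 69 cKO cells in the table of 143 cells, 68 passed the gate, 34 in each batch. They gave 22 Vegfa-high, 24 middle and 22 Vegfa-low cells. TPM is a transcript level corrected for length and then scaled to a common total in every cell.

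The hearts came from C57BL/6 mouse embryos at embryonic day 9.5. All ranked cells carried the same genotype, labelled Mesp1Cre/+; Dgcr8-/-, in which Cre made from the Mesp1 gene removes floxed Dgcr8 in early mesoderm, so that other heart lineages derived from it lose the gene too. The comparison cells, labelled wild type, came from hearts that the study used as controls. Both carried a membrane reporter, and each cell was picked by hand from the dissociated ventricular part of the heart tube before Smart-seq2 amplification. The labels name no embryo, so each genotype is 1 sample, cells are not replicates, and no test was run. The differences describe these cells, and the SD given with a mean is the scatter across cells.

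Vegfa encodes VEGF-A, a secreted growth factor that drives the sprouting and survival of blood vessels and that the early myocardium makes for the neighbouring endothelium. Its transcription rises in low oxygen, when the prolyl hydroxylases, of which Egln1 encodes the main one, stop marking HIF-1 alpha for removal by the VHL ubiquitin ligase. HIF then binds short hypoxia response elements with the core ACGTG and raises genes for glucose uptake, glycolysis, collagen modification and its own hydroxylases. Dgcr8 is the RNA-binding part of the microprocessor, which cuts primary microRNA transcripts.

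Vegfa itself (chromosome 17, 46016993 to 46032369, minus strand, mm10) served to group the cells, and its levels are a description. Vegfa TPM ran from 0 to 24.96 with a median of 4.12 in the low group, where 3 cells were listed at 0. It had a median of 35.5 in the middle group. In the high group it ran from 69.6 through a median of 127 to 350.1. The borders were close in batch 1, where the low group ended at 24.96, the middle group ran from 27.7 to 68.4 and the high group began at 69.6. In batch 2 the low group ended at 22.2 and the middle group ran from 22.9 to 54.03, while the high group began at 96.6. At the gate, the one cKO cell outside scored 7.74 and the lowest cell inside 8.66. The mean log2(TPM + 1) of Vegfa was 2.40 ± 1.70 (SD, n = 22 cells) in the low group and 7.11 ± 0.60 (SD, n = 22 cells) in the high group, a difference of 4.71.

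**Figure D1:**
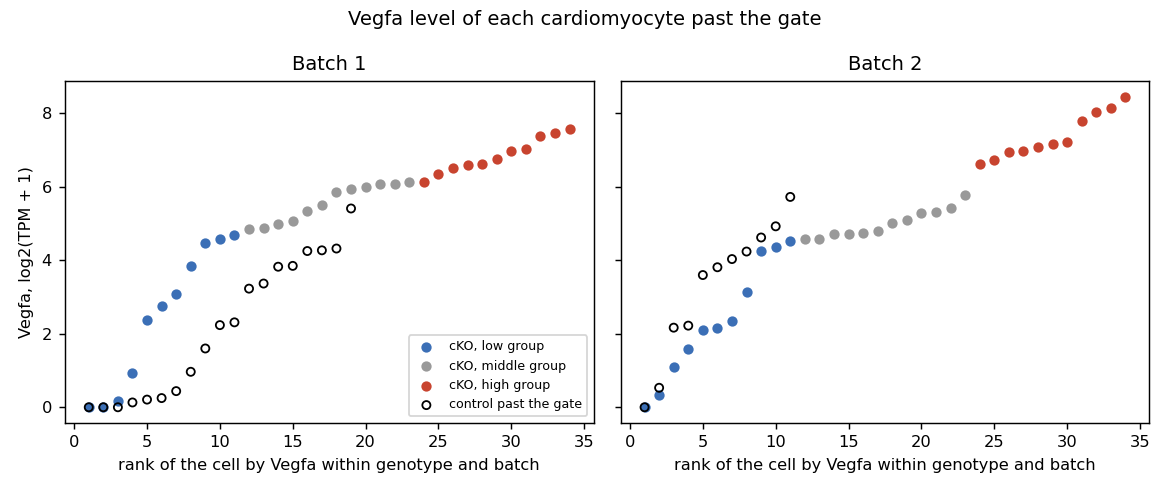
Vegfa level as log2(TPM + 1) on the y axis against the rank of the cell within its genotype and batch on the x axis, with 1 point per cell; filled points are cKO cells coloured by group and open points are control cells past the same gate. The groups of batch 1 lie close together, whereas in batch 2 the high group starts at 96.6 TPM, above the 54.03 TPM at which the middle group ends.

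The Vegfa-high and Vegfa-low cells were not alike in cell quality and in cardiomyocyte gene level. The mean over the 15 gate genes had a median of 10.7 in the high and 10.2 in the low group, and across the 34 cells of each batch it went with Vegfa at Spearman's rho of 0.61 and 0.51. The groups had similar medians of detected genes, 8441 in the high and 8416 in the low group. Fewer than 5000 genes were detected in 3 low-group cells and in 0 high-group cells, and mitochondrial transcripts passed 10% of TPM in 5 low-group and 1 high-group cells. In batch 1, 5 of the 11 high-group cells shared 6 as the first number of their titles, a number whose meaning the labels do not give. The defining endothelial markers Cdh5, Cldn5, Sox17, Sox18, Tal1 and Plvap were above 0 in too few cells to pass the filter on low values. The summed TPM of the 18 endothelial markers ran from 4.91 to 371 in the low group and from 5.21 to 439 in the high group. The summed TPM of the 10 erythroid markers had a median of 7.19 (0 to 558) in the low and 41.4 (0 to 816) in the high group. The part that these measures play in the results was not tested, and the values without the cells concerned stand beside the main counts.

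The targeted gene was checked first. Dgcr8 had a TPM of at least 1 in 9 of 22 Vegfa-low and 3 of 22 Vegfa-high cells. Its mean log2(TPM + 1) was 2.10 and 0.92, against 2.64 in the control cells past the gate. The value covers the whole gene, so transcripts that lack the deleted part still count. The difference of −1.18 came mainly from batch 1, where it was −2.20, against −0.17 in batch 2.

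Across the genome, 13744 genes besides Vegfa had TPM above 0 in more than 10 of the 68 cells. A gene counted as higher or lower when its mean log2(TPM + 1) differed by at least 1 unit in the same direction in both batches. By that rule 697 genes (5.07%) were higher in the Vegfa-high cells and 194 genes (1.41%) were lower. The median difference of all genes was 0.13, with 0.22 in batch 1 and 0.04 in batch 2. The differences of the 2 batches had a Pearson correlation of 0.19 and a Spearman correlation of 0.17 over the genes, which are not independent of each other, and 55.3% of genes had the same sign in both.

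The balance of higher against lower genes depended on which cells were kept. Without cells under 5000 detected genes, 342 genes were higher and 437 lower. Without cells over 10% mitochondrial TPM the counts were 359 and 600. When the mean of the 15 cardiomyocyte genes was regressed out within each batch, 117 genes were higher and 305 lower. Of the 697 genes, 324, 294 and 102 still met the rule under these 3 alternatives, and of the 194 genes 172, 173 and 113 did. Support was counted for 100 genes that met this rule and were chosen for naming, largely by size of difference. They do not stand for all genes that met it. These 100 met the rule under 7 to 19 of 19 alternatives that kept both batches, with a median of 15, runs that left out single cells not counted. Among the 19, a gate at 8 kept the same 68 cells, and dropping the filter on low values left each difference as it was. Neither could undo a call. Removing the trend with transcript length could change little, as its Spearman's rho was 0.008 in batch 1 and 0.042 in batch 2.

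**Figure D2:**
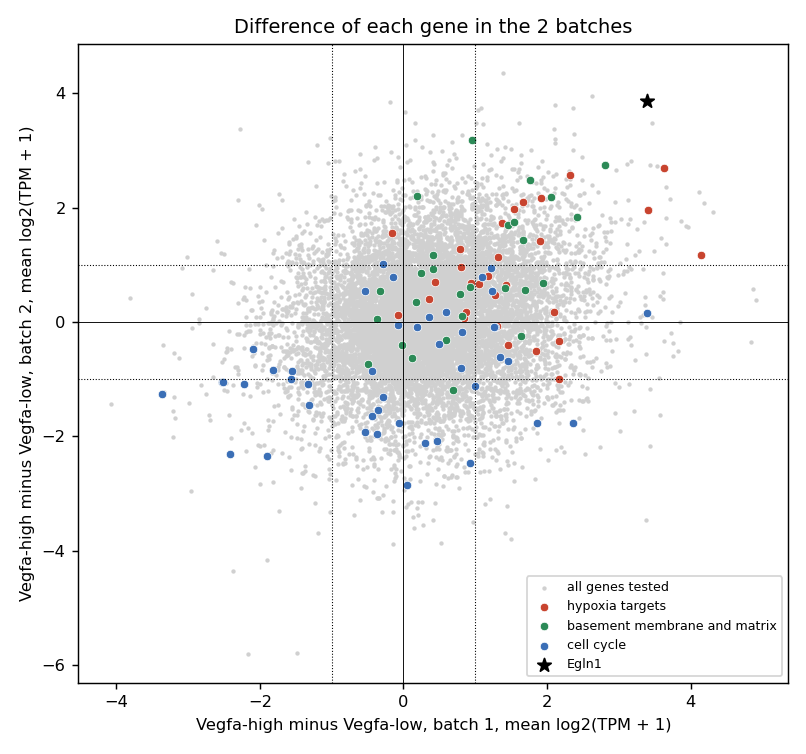
Difference of each gene between the Vegfa-high and Vegfa-low groups, in mean log2(TPM + 1), with batch 1 on the x axis and batch 2 on the y axis; dotted lines mark 1 unit, the threshold of a called gene. Hypoxia targets (red) and matrix genes (green) lie mostly above 0 in both batches, cell cycle genes (blue) mostly below 0 in batch 2, and Egln1 (star) at 3.39 and 3.87.

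Egln1 had the largest difference of the oxygen-sensing genes, and across cells its level followed Vegfa more closely than that of any other gene with an established name. Its TPM ran from 0 to 74.3 with a median of 2.92 in the low group, had a median of 21.7 in the middle group, and ran from 0 through 78.1 to 231 in the high group. Of the 22 high-group cells, 21 exceeded the median of the low group and 11 exceeded its highest cell, so the groups overlapped in part. The difference was 3.63 (3.39 in batch 1, 3.87 in batch 2), from a mean of 2.37 ± 2.06 to 6.00 ± 1.73 (SD, n = 22 cells each). Across the 34 cells of each batch, Egln1 and Vegfa correlated at Spearman's rho of 0.62 and 0.67, as a description of cells that share a library protocol and differ in depth. The difference of at least 1 unit in both batches remained under all 19 of these alternatives.

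The other genes of oxygen sensing differed less. Hif1a, the oxygen-labile subunit, had a median TPM of 49.1 in the low and 93.7 in the high group. The batches gave 1.96 and 0.54, so it did not count as higher. Vhl, which encodes the ubiquitin ligase component that captures hydroxylated HIF, differed by 1.31 and 0.90 and had a TPM of at least 1 in 9 low-group and 13 high-group cells. Arnt, the constitutive partner of HIF-1 alpha, differed by −0.64 and 0.79, opposite in the 2 batches. The paralogous hydroxylases Egln2 and Egln3 differed by −0.44 and 0.59 over both batches. Hif1an, the asparagine hydroxylase, differed by −0.13, and Epas1, which encodes HIF-2 alpha, by −0.37. Hif3a differed by 0.08. Egln1 was thus the 1 of 9 genes of the list past the filter that met the rule (11.1%, against 5.07% of all genes).

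Of the 32 hypoxia targets in a list of known HIF-responsive genes, 29 passed the filter on low values. In the Vegfa-high cells 10 of them (34.5%) were higher, 0 were lower and all 29 had a difference above 0. The background was 5.07% of genes higher, and 60.5% of all genes had a difference above 0. The median difference of the list was 0.92, with 1.37 in batch 1 and 0.70 in batch 2, against 0.13 over all genes. The 10 genes were Hilpda, Vldlr, Cox4i2, P4ha2, P4ha1, Loxl2, Plod2, Wsb1, Ankrd37 and Ero1l.

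Several of these genes act on collagen. P4ha2 and P4ha1 encode catalytic subunits of collagen prolyl 4-hydroxylase. P4ha2 TPM ran from 0 through a median of 104 to 713 in the low group and from 23.96 through 363 to 892 in the high group. Its difference was 2.44 (2.32 and 2.57), and 20 of 22 high-group cells exceeded the low-group median. P4ha1 TPM had medians of 101 and 171, with 0.176 as the lowest value in the low group and 3.75 in the high group, and a difference of 2.04 (1.91 and 2.18). Plod2, a lysyl hydroxylase of collagen, had medians of 20.1 and 72.4 TPM and differed by 1.76 (1.54 and 1.97). Loxl2, a lysyl oxidase family enzyme that cross-links matrix proteins, ran from 0.310 to 142 TPM in the low group and from 14.2 to 289.5 in the high group, a difference of 1.88 (1.67 and 2.10). For all 4 the high group lacked the lowest values or had fewer of them, while the upper ranges of the groups overlapped.

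The remaining members act in lipid storage, respiration and the secretory pathway. Hilpda, which encodes a lipid droplet protein that restrains lipolysis, had a TPM of at least 1 in 10 low-group and 18 high-group cells, with medians of 0.632 and 164. It differed by 3.15 (3.62 and 2.68) and met the rule under the same 19 alternatives. Vldlr, a lipoprotein receptor, had medians of 4.43 and 73.5 TPM and differed by 2.68 (3.41 and 1.95). Cox4i2, the alternative subunit 4 of cytochrome c oxidase, ran from 0 through 151 to 997 TPM and from 25.6 through 546 to 1533 TPM. The batches gave 4.14 and 1.16, the least even pair of the 10. Ero1l, an oxidase of the endoplasmic reticulum that lets disulphide bonds form, had medians of 73.97 and 165 TPM and differed by 1.23 (1.32 and 1.14). Wsb1, part of a ubiquitin ligase, had medians of 103 and 182 TPM and differed by 1.66 (1.90 and 1.41). Ankrd37, whose low-group median was 0, had 46.96 as its high-group median TPM and differed by 1.55 (1.37 and 1.73). Of the more abundant targets, Bnip3 had medians of 992 and 1022 TPM and differed by 0.81, and Mif had the smallest difference of the list at 0.02.

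Without cells under 5000 detected genes 5 of the 10 genes still met the rule, losing Ankrd37, Plod2, Ero1l, Cox4i2 and Wsb1. When cells were ranked among those sharing the first number of their titles 5 did, losing Ankrd37, Plod2, Ero1l, Loxl2 and Cox4i2. Without cells over 10% mitochondrial TPM 3 did, namely Loxl2, Vldlr and Hilpda, and the list median was 0.45. With the cardiomyocyte genes regressed out 6 of the 10 remained. Without cells that carried 3 or more endothelial or erythroid markers all 10 remained and 18 members in all were higher. Leaving out any single cell gave 7 to 11 higher members.

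The promoters of 4 genes that were higher are shown as examples, chosen because their windows hold the HIF core motif. The windows span 250 bases before to 50 after each gene start in RefSeq, on build GRCm38.p6, written 5′ to 3′ on the strand of the gene. Capitals mark ACGTG on either strand, so CACGT is marked as well. The first window is chr8:124949205-124949504 (minus strand), the second chr6:29272376-29272675 (plus strand), the third chr11:54100674-54100973 (plus strand) and the fourth chr8:45999801-46000100 (minus strand).
Egln1: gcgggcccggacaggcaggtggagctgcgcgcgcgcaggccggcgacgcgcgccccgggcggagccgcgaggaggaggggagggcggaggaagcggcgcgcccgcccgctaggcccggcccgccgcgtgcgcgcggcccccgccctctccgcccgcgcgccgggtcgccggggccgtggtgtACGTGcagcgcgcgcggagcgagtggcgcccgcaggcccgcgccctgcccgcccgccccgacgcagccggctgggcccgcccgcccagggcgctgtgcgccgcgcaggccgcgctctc
Hilpda: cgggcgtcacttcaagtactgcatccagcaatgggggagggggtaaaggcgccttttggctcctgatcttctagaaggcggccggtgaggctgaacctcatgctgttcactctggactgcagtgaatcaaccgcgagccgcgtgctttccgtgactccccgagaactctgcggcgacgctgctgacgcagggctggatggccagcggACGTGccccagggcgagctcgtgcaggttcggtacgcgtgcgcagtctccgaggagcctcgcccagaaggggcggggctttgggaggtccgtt
P4ha2: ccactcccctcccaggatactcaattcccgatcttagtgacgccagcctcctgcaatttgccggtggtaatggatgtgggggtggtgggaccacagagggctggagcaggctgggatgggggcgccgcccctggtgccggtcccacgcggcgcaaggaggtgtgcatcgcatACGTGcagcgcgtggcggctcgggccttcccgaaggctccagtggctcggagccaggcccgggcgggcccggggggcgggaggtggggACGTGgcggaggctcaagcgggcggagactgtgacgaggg
Ankrd37: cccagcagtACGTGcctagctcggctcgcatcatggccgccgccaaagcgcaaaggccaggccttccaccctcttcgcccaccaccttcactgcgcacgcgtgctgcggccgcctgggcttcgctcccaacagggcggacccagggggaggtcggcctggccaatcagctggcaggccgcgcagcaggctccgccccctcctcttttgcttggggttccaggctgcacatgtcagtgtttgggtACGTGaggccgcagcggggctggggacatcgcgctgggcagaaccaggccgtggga
Hilpda has a second RefSeq start whose window, chr6:29272238-29272537, holds no such letters. Neither window of Vldlr (chr19:27216234-27216533 and chr19:27216770-27217069) holds them. Of the Vegfa windows, chr17:46032328-46032627 holds none and chr17:46025114-46025413 holds 1 match.

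A RefSeq promoter window was matched by symbol for 9859 of the 13744 genes, and 2893 of those genes (29.3%) held ACGTG on either strand in at least 1 window. Of the hypoxia targets past the filter, 22 had a window and 15 of them (68.2%) held the motif, among them 6 of 7 that were higher in Vegfa-high cells. The shares were 35.98% (190 of 528) of the genes that were higher and 29.6% (45 of 152) of those that were lower. The list of hypoxia targets consists of genes known to respond to HIF, so its share is a property of the list and not of these cells. A match describes letters in the window and does not show binding.

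Glucose uptake and glycolysis differed unevenly. Of 23 genes, 4 were higher (17.4%, against 5.07% of all genes) and 0 were lower, and the list median was 0.29 joined, 0.75 in batch 1 and 0.03 in batch 2. Hk2, the hexokinase induced by HIF, had medians of 220 TPM in the low and 598 in the high group and differed by 1.79 (1.45 and 2.12), with 7 high-group cells above the highest low-group cell. The glucose transporter gene Slc2a3 had medians of 116 and 245 TPM and differed by 1.41 (1.11 and 1.70). Aldoc, an aldolase, and Pgam2, the muscle phosphoglycerate mutase, differed by 1.42 and 1.46. Abundant enzymes did not meet the rule. Gapdh had medians of 8801 and 8869 TPM, Ldha differed by 0.21 and Pgk1 by 0.71. Eno1 was opposite, with medians of 4764 and 2778 TPM and a difference of −0.50. The count of 4 went to 1 without cells under 5000 detected genes, where the list median was −0.09, and to 1 without cells over 10% mitochondrial TPM. It went to 0 with the cardiomyocyte genes regressed out, where the list median was 0.05.

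No other ligand or receptor gene of the VEGF family was higher by rule. Nrp1, which encodes the co-receptor neuropilin 1, was lower. It was the 1 member of 6 past the filter that met the rule (16.7%, against 1.41% of all genes). Its TPM ran from 0.154 through a median of 50.3 to 267 in the low group and from 0 through 13.6 to 164 in the high group, where 18 of 22 cells lay below the low-group median. The difference was −1.51 (−1.47 in batch 1, −1.55 in batch 2), and the rule was met under 15 of the 19 alternatives, not with the cardiomyocyte genes regressed out. Vegfb, a paralogous ligand, differed by 0.25 and the lymphatic ligand Figf by −0.08. The receptor genes Kdr and Flt1 differed by 0.05 and 0.64, and Kdr had a TPM of at least 1 in 1 low-group and 2 high-group cells. Nrp2 had medians of 0.312 and 0.317 TPM. Vegfc, Pgf and Flt4 did not pass the filter.

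Other vessel-related genes that the study had named in these hearts were compared with Vegfa left out. Hspg2 and Adm2 were higher among 7 (28.6%, against 5.07% of all genes), and the list median was 1.05 (1.03 and 0.72), although the genes had been picked on cells of this table. Adm2, a peptide hormone of the adrenomedullin family, had a TPM of at least 1 in 4 low-group and 10 high-group cells and differed by 1.66. It met the rule under 10 of the 19 alternatives, and not without cells of low detection, of high mitochondrial share or with endothelial or erythroid markers, nor with the cardiomyocyte genes regressed out. Ctgf, a matricellular protein, differed by 0.08 in batch 1 and 2.03 in batch 2, Anxa2 by 1.03 and 0.72 and Rhob by 0.57 and 0.38. Pecam1, an endothelial adhesion molecule, had medians of 10.4 and 9.33 TPM and differed by −0.20. Of 25 secreted vessel regulators other than VEGF past the filter, the 1 that met the rule was Adm2, already counted above (4%, against 5.07% of all genes). Cxcl12, a chemokine, differed by 4.91 in batch 1 but 0.38 in batch 2.

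Genes of the basement membrane and matrix held the most higher members after the hypoxia targets. Of 27 past the filter, 7 were higher (25.9%, against 5.07% of all genes) and 0 were lower, with a list median of 0.77 (0.82 and 0.61). Hspg2 encodes perlecan, the heparan sulphate proteoglycan of basement membranes. Its TPM ran from 0 through 10.8 to 125 in the low group and from 0.395 through 82.99 to 227 in the high group, a difference of 2.77 (2.80 and 2.74). Fn1, the fibronectin gene, ran from 2.07 through 54.6 to 217 TPM and from 26.8 through 171 to 369.9 TPM, and 20 of 22 high-group cells exceeded the low-group median. Its difference was 2.12 (2.05 and 2.19), and with Vegfa it correlated at 0.63 and 0.56 across the cells of the batches. For Fn1 7 high-group cells exceeded every low-group cell and for Hspg2 5 did, and the other cells overlapped.

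Vcan encodes versican, a proteoglycan of the cardiac jelly, and had medians of 175 and 411 TPM with a difference of 2.13 (2.42 and 1.84). The laminin chain gene Lamc1 had medians of 12.7 and 53.4 TPM and differed by 2.12 (1.76 and 2.49). The type IV collagen genes Col4a1 and Col4a2, which lie head to head in the genome, differed by 1.58 and 1.64. Timp3, a metalloproteinase inhibitor, differed by 1.55, whereas Timp1 was at the other end of the list with −0.61. The count of 7 went to 5 without cells under 5000 detected genes, to 4 without cells over 10% mitochondrial TPM and to 1, Hspg2, with the cardiomyocyte genes regressed out. Integrin and focal adhesion genes had the highest list median, 1.14 (1.10 and 0.86), but 3 of 22 met the rule (13.6%, against 5.07% of all genes). These were Lims2, Itgb5 and Rhoc, with differences of 2.23, 1.49 and 1.18. They met the rule under 14, 13 and 9 of the 19 alternatives, and Itgb5 and Rhoc did not without cells under 5000 detected genes or with the cardiomyocyte genes regressed out.

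**Figure D3:**
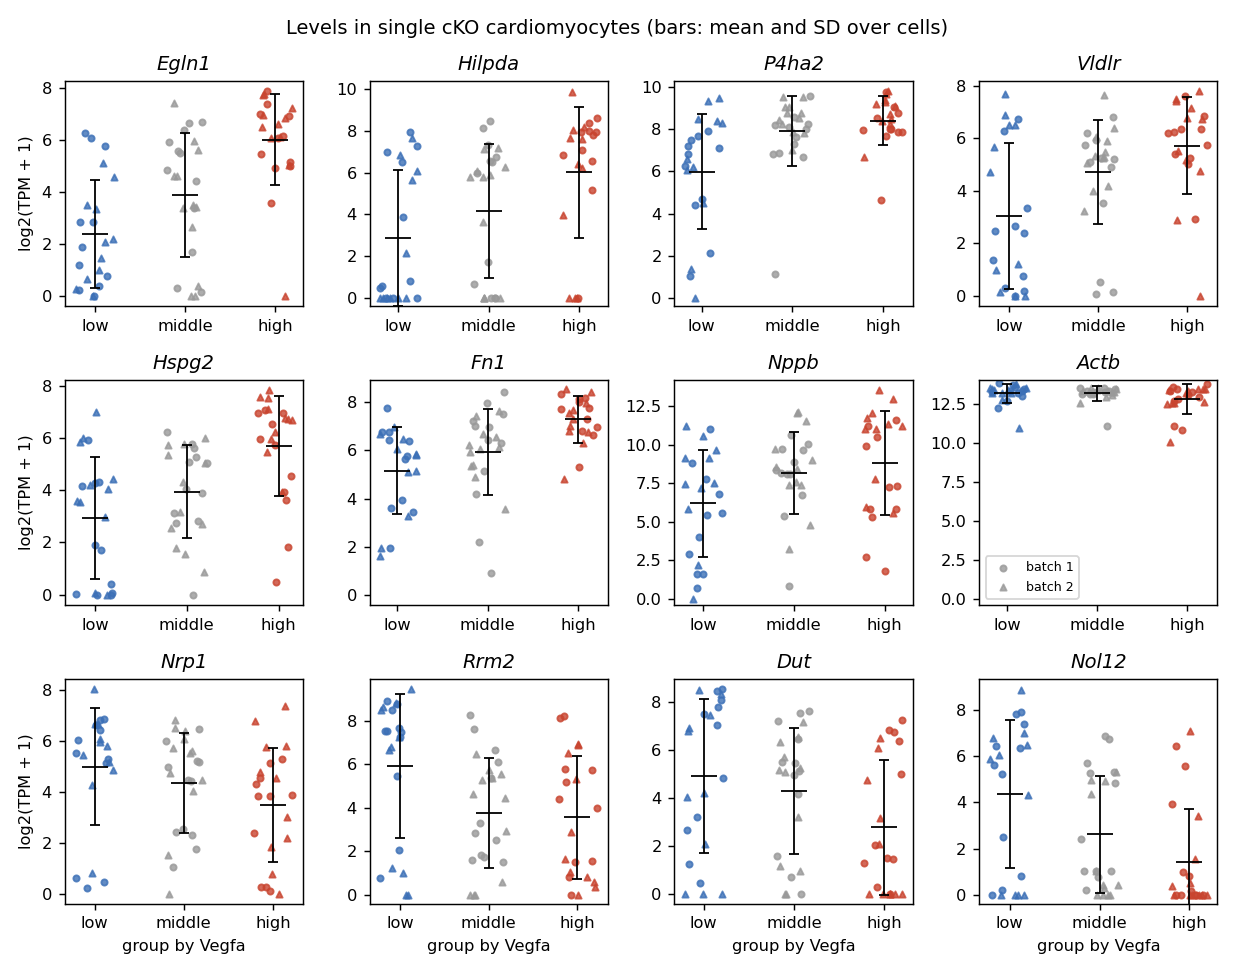
Level of 12 genes as log2(TPM + 1) on the y axes in each of the 68 cKO cells, grouped on the x axes by Vegfa group, with circles for batch 1 and triangles for batch 2; black bars are the mean and the SD over cells. Egln1 and Fn1 are shifted in most cells, whereas Hilpda reaches 1 TPM in 10 low and 18 high cells and Nol12 in 15 low and 6 high cells.

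The 6 actin isoforms did not move together, and 1 of them (16.7%, against 5.07% of all genes) was higher. Acta1, the skeletal alpha-actin that embryonic cardiomyocytes also make, was higher, with 5.37 to 11257 TPM (median 793) in the low group and 19.6 to 9189 (median 4013) in the high group. It differed by 1.61 (1.67 and 1.55), and the groups overlapped over nearly their whole range. Acta1 met the rule under 10 of the 19 alternatives, and not without cells under 5000 detected genes, without those over 10% mitochondrial TPM or with the cardiomyocyte genes regressed out. Actc1, the cardiac alpha-actin and a gene of the gate, differed by 0.77, and the smooth muscle actins Acta2 and Actg2 differed by 0.16 and 0.04. The cytoplasmic actins were not higher, as Actb differed by −0.38 (−0.43 and −0.33) and Actg1 by −0.31 (−0.16 and −0.45). The isoforms share long stretches of coding sequence, so their TPM values partly depend on how Salmon assigned shared reads.

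Of 42 actin cytoskeleton genes, 6 were higher (14.3%, against 5.07%) and 0 lower, with a list median of 0.56 (1.07 and 0.36). They were the Arp2/3 subunit gene Arpc3 (difference 1.98), vinculin Vcl (1.89), keratin 19 Krt19 (1.88), Csrp1 (1.72), talin Tln1 (1.33) and transgelin Tagln (1.21). Tagln TPM ran from 97.0 through 1100.0 to 3646 in the low group and from 662 through 2422 to 5293 in the high group. Vcl, which couples integrins to actin, had medians of 14.1 and 37.4 TPM. The count was 1 without cells under 5000 detected genes, 1 without cells over 10% mitochondrial TPM and 0 with the cardiomyocyte genes regressed out. Annexin and S100 genes had 3 of 11 higher, S100a11, S100a1 and S100a10, with differences of 2.33, 2.20 and 1.92 (27.3%, against 5.07% of all genes). Of these 3, 0 still met the rule without cells under 5000 detected genes, 1 did without cells over 10% mitochondrial TPM, and 0 did with the cardiomyocyte genes regressed out. Among genes of the YAP-TEAD and SRF pathways 4 of 16 were higher, again beside 5.07% of all genes. These were the TEAD factors Tead3 (1.92) and Tead1 (1.82), Ajuba (1.76) and Yap1 (1.31), and Tead1 TPM was above the low-group median in 21 of 22 high-group cells. Yap1 and Ajuba no longer met the rule without cells under 5000 detected genes or without those over 10% mitochondrial TPM, and Yap1 and Tead1 did not with the cardiomyocyte genes regressed out.

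Of 28 sarcomere genes outside the gate, 22 did not meet the rule, 5 were higher (17.9%, against 5.07% of all genes) and 1 was lower (3.57%, against 1.41%), with a list median of 0.88 (0.99 and 0.50). Nexn, an actin-binding Z-disc gene, ran from 9.86 through 206 to 1099.8 TPM in the low group and from 203 through 449 to 966 in the high group. Its difference was 1.23 (1.10 and 1.35), and 21 of 22 high-group cells exceeded the low-group median. Mylk3, the cardiac myosin light chain kinase, differed by 1.94, Myl1 by 1.60, Cryab by 1.48 and Xirp1 by 1.47. Tnni2, the fast skeletal troponin I, was lower by rule, with medians of 23.8 and 0.632 TPM and a difference of −2.08. With the cardiomyocyte genes regressed out the list median was −0.09, and without cells under 5000 detected genes 0 of the 5 still met the rule.

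Of 20 calcium handling and channel genes, 4 were higher, against 5.07% of all genes. With the cardiomyocyte genes regressed out 0 of the 4 still met the rule, and 2, Cacna1c and Jph2, did when cells under 5000 detected genes or over 10% mitochondrial TPM were left out. By the split at the median and by the log2 ratio of mean TPM + 1 none of these 4 genes did, and Trdn met the rule under 7 of the 19 alternatives. The calcium pump gene Atp2a2 had medians of 168 and 397 TPM and differed by 1.46, and the L-type channel gene Cacna1c had medians of 5.69 TPM in the low and 39.0035 TPM in the high group and differed by 1.93. For Cacna1c 1 low-group cell stood at 1754 TPM, above the highest high-group cell at 132, and the log2 ratio of mean TPM was −1.13, opposite to the difference of mean logs. Trdn and Jph2, parts of the junction between the calcium stores and the surface membrane, differed by 1.59 and 1.44. Mef2a, a transcription factor of muscle genes, was higher by 2.19 and Hey2, a Notch-responsive repressor of the ventricle, by 1.40, under 16 and 10 of the 19 alternatives. They were the 2 of 21 cardiac transcription factor genes that were higher (9.52%, against 5.07% of all genes), and 0 were lower. The median of that list was 0.08 (0.22 and −0.41), and 11 of the 21 had a difference above 0. Gja1, the connexin 43 gene, differed by −2.32 in batch 1 and −0.78 in batch 2.

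Nppa and Nppb encode peptide hormones that the trabecular and stretched ventricle releases. Nppa TPM ran from 0 through 123 to 9898 in the low group and from 7.35 through 1813 to 58985 in the high group, a difference of 2.87 that was 1.39 in batch 1 and 4.35 in batch 2. Nppb had medians of 131 and 1201 TPM and differed by 2.62 (2.11 and 3.13). For both, 15 of 22 high-group cells exceeded the low-group median and 6 exceeded the highest low-group cell. Erbb4, the receptor for neuregulin in trabeculation, and Id2, a target of BMP signals, differed by 1.96 and 1.89. These 4 were the members of 21 that were higher (19.05%, against 5.07% of all genes), and the list median was 0.07. Without cells over 10% mitochondrial TPM all 4 still met the rule, and with the cardiomyocyte genes regressed out Id2 did.

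In the main comparison respiratory genes divided by genome. Of 84 nuclear genes of oxidative phosphorylation 5 were higher (5.95%, near the background of 5.07%) and 0 lower, and the list median was 0.41. Of the 5, Cox7a1 alone still met the rule without cells under 5000 detected genes or without those over 10% mitochondrial TPM. None did with the cardiomyocyte genes regressed out, where the median of this nuclear list was −0.11. The heart isoform gene Cox7a1 had medians of 24.2 and 117 TPM and differed by 2.48 in both batches. The 13 protein-coding genes of the mitochondrial genome all had a difference below 0, with a list median of −0.76 (−0.87 and −0.56), and mt-Atp6, mt-Atp8 and mt-Nd4l were lower (23.1%, against 1.41% of all genes). The transcript mt-Atp8 had medians of 1562 and 454 TPM. The reading frames of mt-Atp6 and mt-Atp8 overlap and those of mt-Nd4l and mt-Nd4 do too, so the split of reads among them is uncertain. The low group held 5 and the high group 1 of the cells over 10% mitochondrial TPM, and without those cells 1 of the 3 genes, mt-Atp6, still met the rule. With the cardiomyocyte genes regressed out 0 of the 3 did and the list median was −0.12, and 0 did when cells were ranked within the first title number. In fatty acid oxidation, Acadl and Acadvl, which encode acyl-CoA dehydrogenases, were higher by 2.52 and 2.07. Cpt2, which imports the acyl groups, was lower by rule at −2.08. Acadl, Acadvl and Pdha1 were the 3 of 31 TCA cycle and fatty acid oxidation genes that were higher (9.68%, against 5.07% of all genes). Cpt2 was the 1 that was lower (3.23%, against 1.41%), and the list median was 0.30 (0.75 and −0.12). With the cardiomyocyte genes regressed out, or by the log2 ratio of mean TPM + 1, Acadl, Acadvl and Pdha1 did not meet the rule.

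Stress genes were divided as well. Of 26 genes of the integrated and endoplasmic reticulum stress responses 4 were higher (15.4%, against 5.07% of all genes), among them the amino acid transporter Slc7a5 (2.08) and the sestrin gene Sesn2 (1.76). Trib3 and Chac1, targets of the ATF4 branch, differed by 1.55 and 1.59. The list median was 0.22, and it was −0.24 without cells over 10% mitochondrial TPM, where 0 of the 4 met the rule. Slc7a5 alone of the 4 still met it without cells under 5000 detected genes, and Trib3 alone with the cardiomyocyte genes regressed out. Of 19 immediate early genes past the filter, the phosphatase gene Dusp1 was lower (5.26%, against 1.41% of all genes). It had medians of 87.5 and 10.9 TPM and a difference of −2.42. Fosl2 was higher by 1.15 (5.26%, against 5.07%). The median of the immediate early list was 0.12 in batch 1 and −1.20 in batch 2. Ribosomal protein genes had 0 of 85 higher and 0 lower, with a list median of −0.11.

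**Figure D4:**
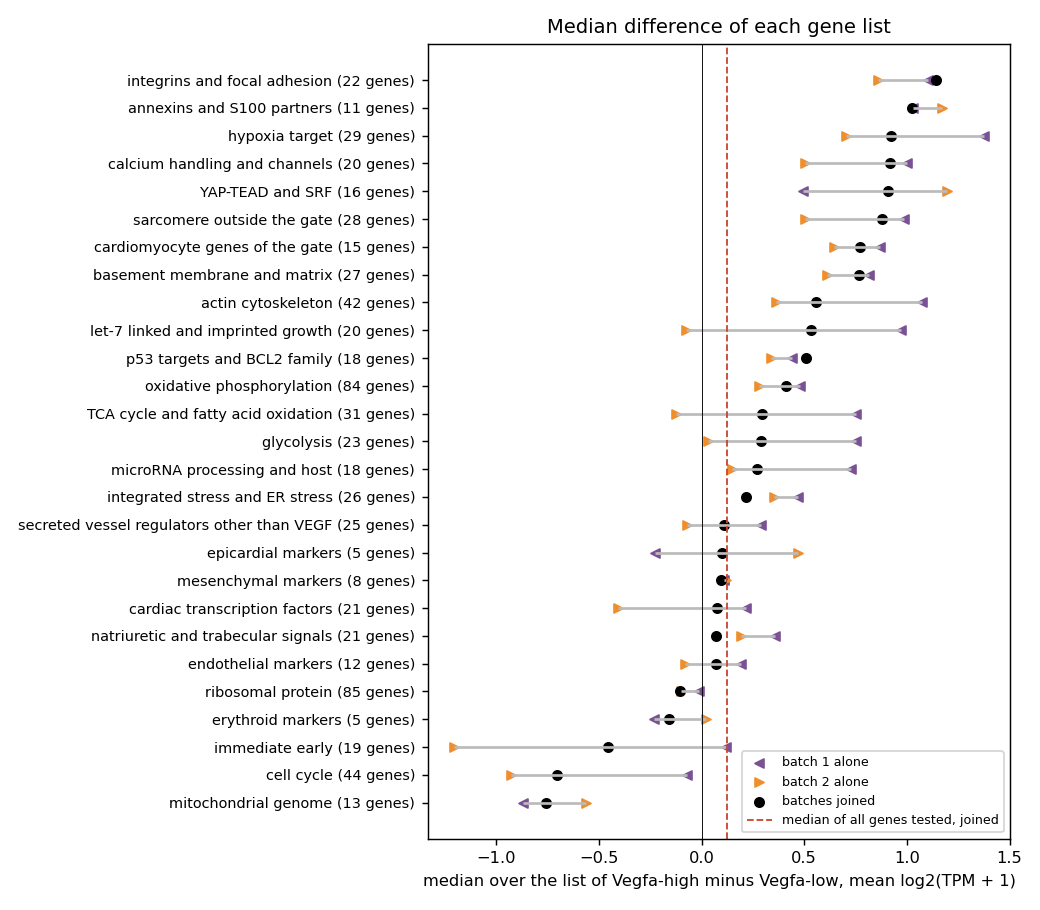
Median over each gene list drawn of the Vegfa-high minus Vegfa-low difference in mean log2(TPM + 1), with the list and its number of genes past the filter on the y axis. Black points join the batches and triangles give each batch alone. The lists of VEGF, HIF, actin isoform, study-named angiogenesis and sex-linked genes are not drawn. The dashed line is the median of all genes, 0.13, and the cell cycle list ranges from −0.07 in batch 1 to −0.93 in batch 2.

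Cell cycle genes were the list with the most lower members. Of 44, 9 were lower (20.5%, against 1.41% of all genes) and 0 were higher. The 9 were Rrm2, Tk1, Dut, Cdt1, Cdk6, Ccne1, Ccnd1, Rrm1 and Tyms, which serve nucleotide supply, origin licensing and the passage from G1 into S phase. The list median was −0.71, but −0.07 in batch 1 and −0.93 in batch 2. Rrm2, the regulated subunit of ribonucleotide reductase, ran from 0 through 164 to 705 TPM in the low group and from 0 through 10.7 to 296 in the high group. It differed by −2.36 (−2.41 and −2.30), 20 of 22 high-group cells lay below the low-group median, and the rule was met under the same 19 alternatives.

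Dut, which removes dUTP, had medians of 69.2 and 2.51 TPM and differed by −2.13 (−1.91 and −2.34). Tk1, thymidine kinase, had a TPM of at least 1 in 16 low-group and 7 high-group cells and differed by −2.31 (−3.36 and −1.26). Cdt1, which loads the replicative helicase, had medians of 45.6 and 0.434 TPM. Its difference was −1.79. The cyclin genes Ccne1 and Ccnd1 differed by −1.65 and −1.38, and the kinase gene Cdk6 by −1.78. The replication genes Pold3 and Prim1, named by size and not in the list, were lower, with differences of −2.05 and −2.03.

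Genes of mitosis were less even between batches. Cdk1 differed by −0.36 in batch 1 and −1.96 in batch 2, Top2a by −0.53 and −1.92, and Mki67 by 0.99 and −1.12. Cdkn1a, which encodes the cell cycle inhibitor p21, had medians of 42.3 and 184 TPM and differed by 3.40 in batch 1 and 0.16 in batch 2. Without cells under 5000 detected genes 8 of the 9 genes were still lower and 11 members were, and without cells over 10% mitochondrial TPM 8 and 13. Without cells with 3 or more endothelial or erythroid markers 3 of the 9 were, namely Rrm2, Ccne1 and Cdk6. When cells were ranked among those sharing the first number of their titles, 1 of the 9 remained, which was Rrm2. Leaving out any single cell gave 3 to 10 lower members.

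Beyond the lists, the 12 higher genes with the largest smaller difference of the batches were Bri3, Egln1, Prrx2, Stt3b, Trp53inp2, Arl6ip5, Hspg2, Hilpda, Gipr, Arhgap23, Sorl1 and Cox7a1. Bri3, a small membrane protein of lysosomes, had a TPM of at least 1 in 9 low-group and 20 high-group cells and differed by 3.47 (3.46 and 3.48). Stt3b, a catalytic subunit of the oligosaccharyltransferase, ran from 0 through 7.73 to 90.9 TPM and from 3.34 through 62.7 to 155 TPM and differed by 2.80. Gipr, the receptor of an incretin hormone, had medians of 0.186 and 35.1 TPM and differed by 2.81. Prrx2, a homeobox gene of mesenchyme, differed by 2.99, Trp53inp2 by 2.94, Arl6ip5 by 3.09, Arhgap23 by 3.28 and Sorl1 by 2.69. In Trp53inp2 all 22 high-group cells exceeded the low-group median of 0.198 TPM and 0 exceeded the highest low-group cell.

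The 12 lower genes by the same rule were Nol12, Hist1h2ae, Rrm2, Med6, Med4, mt-Atp6, Mfap2, N6amt2, Dusp1, Tnni2, Prim1 and Pold3. Nol12, a nucleolar protein, had medians of 53.5 and 0.0505 TPM and differed by −2.96 (−2.95 and −2.96), with 20 of 22 high-group cells below the low-group median. The Mediator subunit genes Med4 and Med6 had medians of 23.2 and 57.6 TPM in the low group and 0.177 and 1.12 in the high group. Their differences were −2.30 and −2.23. Hist1h2ae, a replication-dependent histone gene, had medians of 470.1 and 7.65 TPM and a difference of −3.36, but near-identical copies make its reads uncertain. N6amt2 differed by −2.61 and Mfap2, a microfibril gene, by −2.08.

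A smaller set met the rule under the same 19 alternatives. It held 13 higher genes, Egln1, Hilpda, Hspg2, Bri3, Stt3b, Arl6ip5, Prrx2, Gipr, Erlec1, Itm2a, Gnai2, Golga4 and Gm6158, and 6 lower genes, Rrm2, Med4, Pold3, Nol12, Hist1h2ae and Hist1h2ap. Itm2a, Gnai2, Golga4, Gm6158 and Hist1h2ap were named after their values were seen. The 5 genes whose level followed Vegfa most closely, by the mean over batches of Spearman's rho across 34 cells each, were Egln1 (0.65), Bri3 (0.60), Fn1 (0.60), Erlec1 (0.58) and Hspg2 (0.57). Erlec1, a lectin of the endoplasmic reticulum, ran from 0 through 4.52 to 41.9 TPM in the low group and from 7.07 through 23.04 to 108 in the high group. All 22 high-group cells exceeded its low-group median.

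Of 18 microRNA-linked genes Ago2 and Mirg were higher (11.1%, against 5.07% of all genes), under 10 and 11 of the 19 alternatives. Ago2, which encodes the argonaute protein that carries microRNAs, had medians of 4.52 and 14.8 TPM and differed by 1.47 (1.15 and 1.80). Mirg, a host transcript of the imprinted Dlk1-Dio3 microRNA cluster, differed by 1.91 (2.58 and 1.24), and Meg3 of the same locus by 3.11 in batch 1 and 0.90 in batch 2. Among 20 let-7-linked and imprinted growth genes Trim71, Igf1r and Igf2r were higher, by 1.61, 2.14 and 1.24 (15%, against 5.07% of all genes). They met the rule under 10, 17 and 8 of the 19 alternatives. Trim71 and Igf2r did not without cells under 5000 detected genes or without those over 10% mitochondrial TPM. Nor did these genes with the cardiomyocyte genes regressed out. The median of this growth list was 0.97 in batch 1 and −0.08 in batch 2. Igf2bp1 differed by −0.25 in batch 1 and −1.63 in batch 2. The epicardial marker Wt1 was higher by 1.99, with a TPM of at least 1 in 10 low-group and 17 high-group cells, under 14 of the 19 alternatives. It was 1 of 5 epicardial markers past the filter (20%, against 5.07% of all genes). No other epicardial, endothelial, erythroid or mesenchymal marker met the rule.

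The same ranking was then made in the 30 of 74 control cells past the gate, which the grouping of cKO cells did not use. Their outer groups held 9 cells each, and Vegfa TPM ran from 0 to 3.49 in the low and from 13.2 to 51.9 in the high group. One control cell of each outer group held far more erythroid marker TPM than its fellows, up to 41925 in the low and 13205 in the high group. The median difference of all genes was 0.19, that of the 697 genes higher in cKO cells was 0.59 and that of the 194 lower genes was 0.24. Among the 10 hypoxia targets the control difference was above 0 in 5 and ran from −0.72 for Plod2 to 1.65 for Ero1l. It was −0.20 for Egln1, −0.28 for Hilpda and −0.26 for P4ha2. The 7 matrix genes all had a control difference above 0, from 1.02 for Hspg2 to 2.33 for Timp3. Among the 9 cell cycle genes it was above 0 in 4. Whether the control and cKO differences differ was not tested.

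The cKO groups could also be set beside all 30 control cells past the gate, whose Vegfa TPM ran from 0 to 51.9. The median over all genes of Vegfa-low cKO minus control was −0.09. Of the 10 hypoxia targets, which had been chosen as higher in Vegfa-high cells, 8 had a value above 0 in that contrast. P4ha2 was 3.56, Cox4i2 4.20 and Ero1l 2.31 higher, whereas Wsb1 and Ankrd37 were −0.34 and −0.14. In Vegfa-high cells P4ha2 stood 6.01 and Cox4i2 6.85 above control. The cytoplasmic actins behaved otherwise, since Actb was 2.87 above control in Vegfa-low and 2.49 in Vegfa-high cells. Xist had a mean of 4.27 and 5.29 in the cKO groups and 0.08 in control cells, and Ddx3y 0.05 and 0.07 against 2.97, so genotype and sex cannot be told apart in these values.

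**Figure D5:**
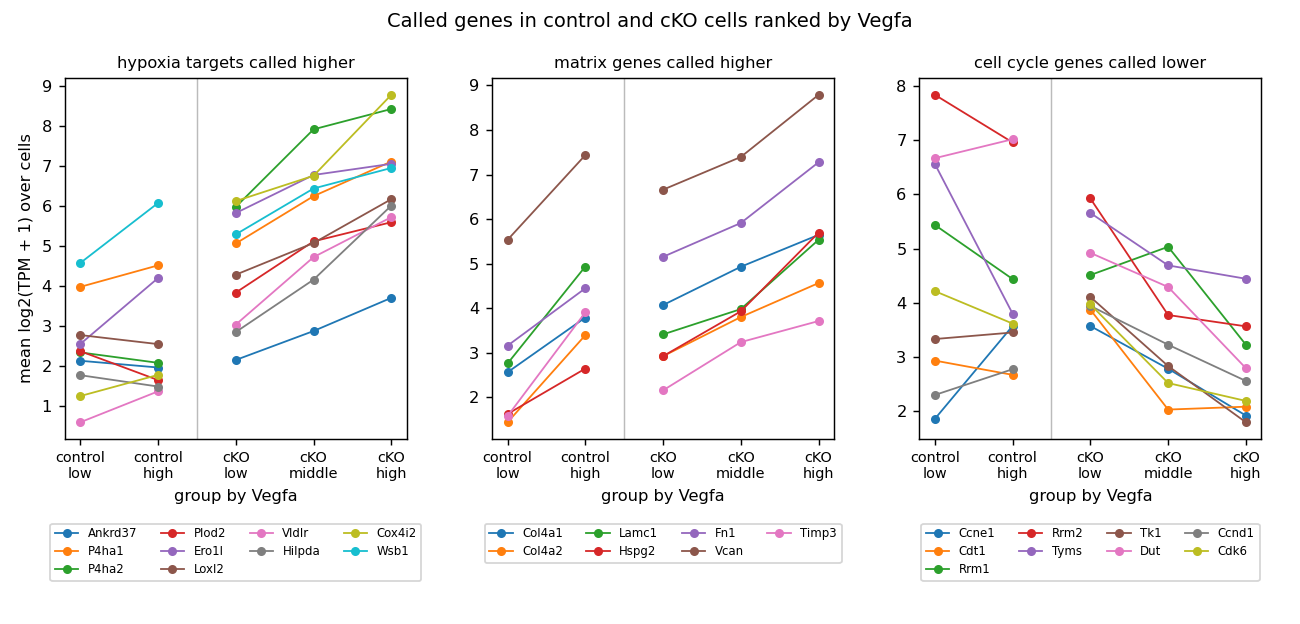
Mean log2(TPM + 1) over cells on the y axes for the hypoxia and matrix genes called higher and the cell cycle genes called lower, with control low and high groups and cKO low, middle and high groups on the x axes, 1 line per gene. The cKO low and high groups chose these genes, and the 7 matrix genes were also higher in the control high than in the control low group.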

How the data were processed

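The authors dissociated the ventricular part of the hearts, picked single cells, amplified RNA by Smart-seq2 and deposited TPM values made with Salmon on mm10. Versions and the gene annotation release are not given in the sources used here. They kept cells above a mapping rate and with reporter transcripts that fitted the genotype. TPM totals ran from 996133 to 999999 per cell, so depth is unknown and was judged by genes detected. The reads had no molecular identifiers, so amplification noise stays in the values.

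Values were taken as log2(TPM + 1), which understates changes of low genes. Genes needed TPM above 0 in more than 10 of the 68 cells. Differences are means of the high minus the low group, and a gene was called at 1 log2 unit in each of 2 batches. No doublet caller was run on hand-picked cells. Genes were named as the 12 with the largest smaller batch difference per direction (TPM of at least 1 in at least 11 of the 22 cells of the higher group, gene models without an established name left out), up to 6 called members and the largest and smallest of each of 32 lists, all VEGF, HIF and actin isoform genes, and 5 genes that followed Vegfa. The members and lists were chosen with earlier results of these data known. Coordinates are from GENCODE vM21. The code of the contrast was checked on simulated data with large known shifts, drawn independently for each gene and without the zeros of real cells. That check gives no error rate for the calls. Python 3.11.15, numpy 2.4.6, pandas 2.3.3, scipy 1.17.1 and matplotlib 3.10.9 were used.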

Additional observations from a re-analysis of the deposited data

How the results depend on the processing

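No paired analysis was possible because titles number individual cells, which share no animal or culture across genotypes by any label, and nothing was tested. Without embryos as replicates the values describe these cells, and TPM without counts gives no depth. The numbers of higher and lower genes (697 and 194) became 1559 and 461 with a pseudocount of 0.1, 108 and 31 with 10, 431 and 409 with a gate of 9, and 350 and 101 with each batch split at its median. The higher genes numbered 427 with detected genes regressed out and 1144 without cells that held 3 or more endothelial or erythroid markers. The lower genes numbered 470 by the log2 ratio of mean TPM + 1, 128 with TPM of at least 1 in 50% of cells, and 69 when ranked within the first title number. With the cardiomyocyte genes regressed out there were 117 and 305. Batch 2 alone gave 1715 and 1227 and batch 1 alone 2583 and 750. In alternatives chosen after seeing the data, there were 342 and 437 without cells under 5000 detected genes and 359 and 600 without cells over 10% mitochondrial TPM. The cause of these changes was not tested.

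The Vegfa difference was 3.17 with a pseudocount of 10, 3.32 with the split at the median and 2.85 with cardiomyocyte genes regressed out. That regression also turned the medians of the sarcomere list (−0.091) and of the p53 list (−0.0046) and the differences of Myl1 (−0.35) and Smpx (−0.35). Without cells over 10% mitochondrial TPM, Atp5g2 (−0.13) and Ndufs3 (−0.13) turned, and Cacna1c was −1.13 by the ratio of means. Of 3412 values for 151 named genes, 3400 moved by less than the SD over cells, 7 moved by more, and 5 of genes that met the rule changed sign. This SD is a loose measure, since a gene can move by less and still fall short of the 1-unit rule. Of the 697 higher genes, 102 still met that rule with the cardiomyocyte genes regressed out. Leaving out single cells gave 516 to 779 higher and 152 to 250 lower genes and a Vegfa difference of 4.49 to 4.71. The list medians then ran from 0.75 to 1.07 for hypoxia targets, 0.07 to 0.41 for glycolysis, 0.45 to 0.64 for the actin cytoskeleton, 0.21 to 0.46 for oxidative phosphorylation, −0.26 to −0.03 for ribosomal proteins, 0.66 to 0.95 for the sarcomere and −0.90 to −0.47 for the cell cycle.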
